A study of Mus musculus with 4 samples.

Results

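The transcripts considered here are 48 mouse genes of mitosis and cytokinesis, a list that holds *Arhgap11a* together with 47 genes whose products carry a cell through division. *Arhgap11a* was chosen by the difference of its level between the groups compared here, so its values are given as a description without a test. The other 47 genes were listed for their roles, with earlier results of these data known. All 48 were found among the 23038 genes quantified by the authors and all had a mean level of at least 1 RPKM (tags per kilobase of exon, scaled to the depth of the library). RNA came from the cortex of mouse embryos at E14.5, from 2 control and 2 *Qk* cKO samples. The controls, labelled wild type, are given in the study as *Qk* fl/fl embryos, littermates of the *Qk* cKO. The *Qk* cKO samples carry the same floxed alleles of *Qk*, which encodes the RNA-binding protein Qki, and a *Nestin*-Cre transgene, which is active in neural progenitor cells and in the cells that descend from them.

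Dividing progenitors of the embryonic cortex enter mitosis when CDK1 is activated by cyclins A and B. Condensin and topoisomerase II compact and untangle the chromosomes, kinetochores attach them to the spindle, and the spindle checkpoint holds back the anaphase-promoting complex until every chromosome is attached. The central spindle and the contractile ring, which is driven by the GTPase RhoA, then separate the daughter cells. Transcripts of most of these genes accumulate in G2 and M phase, in part through promoter elements bound by the DREAM and MuvB complexes, so that their level in a tissue follows both the share of dividing cells and the level in each of them. In these bulk samples fewer cells of a type and less RNA per cell cannot be told apart.

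Between 37942046 and 42994832 tags, the fragments that Quantas counts, were assigned to genes in each sample. In *Qk* itself, tags on the junction of exons 2 and 3 numbered 635 and 565 in the controls and 63 and 68 in *Qk* cKO, while the junction of exons 3 and 4 held 574 and 439 tags in the controls and 898 and 830 tags in *Qk* cKO. Exon 2 is the exon that Cre removes. *Xist* had 57.1 and 64.5 RPKM in the control and the *Qk* cKO sample numbered 1 and 0.0265 and 0.00951 RPKM in those numbered 2, so that each group held 1 embryo with and 1 without it. Among 9 lists of cell markers, that of hypothalamus and diencephalon stood apart, since all 9 of its genes were lower in *Qk* cKO and 6 of them were called in the comparison of levels by edgeR's quasi-likelihood test, led by *Nr5a1*, *Six6*, *Pomc* and *Lhx1*. That count was 6 with edgeR's exact test, 3 without control 1 or *Qk* cKO 2 and 0 without control 2, with 5 at an unadjusted p below 0.05. It was 1 with edgeR's filterByExpr, which drops genes of few tags, and 0 of the 3 genes kept at a mean of at least 1 RPKM in both groups (the RPKM filter), with 2 at an unadjusted p below 0.05, and DESeq2 gave an adjusted p for 1 of the 9. The summed level of the list was 15.1 and 22.3 RPKM in controls 1 and 2 and 11.83 and 11.02 RPKM in *Qk* cKO 1 and 2.

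To determine whether loss of *Qk* was accompanied by a change in steady-state levels of these transcripts, tags per gene were compared between the groups with edgeR's quasi-likelihood test over all 18834 genes with at least 1 tag. A transcript was called at p below 0.01 and a Benjamini-Hochberg false discovery rate (FDR) below 0.1. Of the 47 other members, 6 were called and all 6 were higher in *Qk* cKO, namely *Smc4*, *Ect2*, *Bub1*, *Smc2*, *Ccna2* and *Ttk*. Over all genes tested, 0.207% were called higher and 0.377% lower. None of the 47 was called lower, and none lay below both controls in both *Qk* cKO samples. At an unadjusted p below 0.05 stood 23 of the 47, all of them higher in *Qk* cKO, beside 4.33% of all genes tested that were higher at that p. The 6 log2 fold changes ranged from 0.25 to 0.38, so the called differences were small. The study's own list of changed transcripts, from EdgeR at the same thresholds, holds *Arhgap11a* but none of the other 47 members.

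The shift ran through nearly the whole list. The log2 fold change was above 0 in 46 of 48 members, beside 50.5% of all genes with a mean RPKM of at least 1, with a median of 0.15 over the members and of -0.0025 over all genes tested. Both *Qk* cKO samples lay above both controls in 28 of the 48 members, beside 21.2% of genes with a mean RPKM of at least 1. Both counts and the median include *Arhgap11a*, which was chosen by its difference between these groups. The members together took 0.628% and 0.568% of all tags in controls 1 and 2 and 0.667% and 0.665% in *Qk* cKO 1 and 2. Their summed level was 1789 and 1625 RPKM in the controls and 1895 and 1874 RPKM in *Qk* cKO, so both *Qk* cKO samples were above both controls in sum.

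Control 2 stood apart from the other libraries. It was the lowest of the 4 samples in 41 of the 48 members, beside 27.7% of genes with a mean RPKM of at least 1, and it was also the shallowest library and the highest in hypothalamic and diencephalic markers. The part of these differences in the levels of the members was not tested. Control 1 exceeded control 2 in 43 members, beside 51.1% of those genes, with a median difference of 0.16 on the log2 scale, which is as large as the median difference between the groups. Within the samples numbered 1, *Qk* cKO was higher in 37 of 48 members with a median log2 difference of 0.11, and within those numbered 2 it was higher in 47 with a median of 0.21. Without control 2, the median log2 fold change of the members was 0.08 and 36 of the 48 members were higher, against 46 with all samples. Neither a member nor any other gene was called in that fit. Without control 1 the median was 0.25 with 0 members called and 27 of the 47 at an unadjusted p below 0.05, while 0.0107% of genes tested were called higher. Without *Qk* cKO 1 it was 0.12 with 5 called, but here 1.01% of genes tested were called higher. Without *Qk* cKO 2 it was 0.18 with 1 called, *Bub1b*, beside 0.097% of genes tested. In each of these fits the group left with 1 sample was assumed to vary like the other group. The calls were also lost when weakly expressed genes were left out of the fit. With edgeR's filterByExpr or with a mean RPKM of at least 1 in both groups no member was called and the smallest FDR of the 47 was 0.184 and 0.210, with 21 and 19 at an unadjusted p below 0.05. These filters called 0.0129% and 0.0159% of genes tested higher. DESeq2 called the same 6 genes beside 0.175% of genes tested as higher, while edgeR's exact test called *Bub1* and *Ect2* beside 0.085%.

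**Figure D1:**
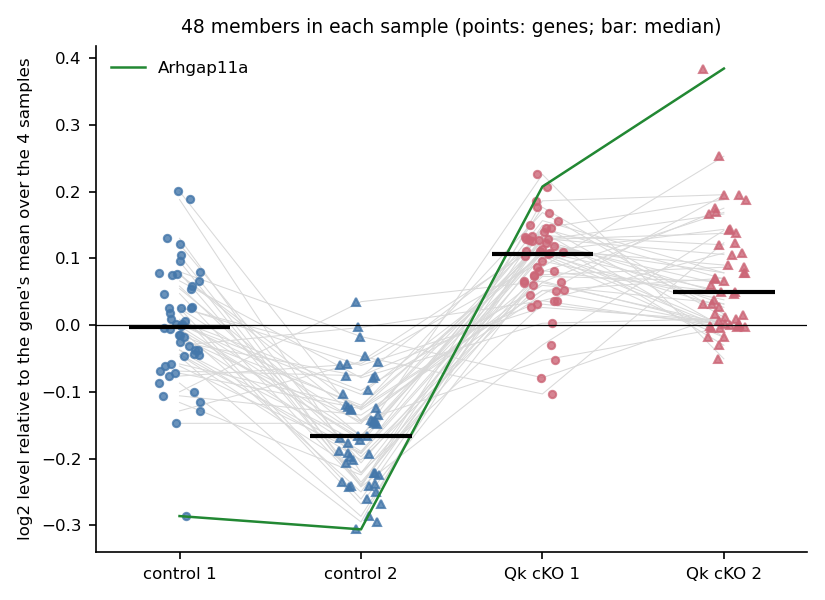
Level of the 48 members in each sample, as the log2 of TMM-scaled CPM relative to the gene's mean over the 4 samples (vertical axis). Points are genes, thin lines join the values of a gene, the black bar is the median over the members and the green line is *Arhgap11a*. The medians are -0.0030, -0.17, 0.11 and 0.049 in control 1, control 2, *Qk* cKO 1 and *Qk* cKO 2, so control 2 lies lowest and control 1 lies between it and the *Qk* cKO samples.

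The genes of the central spindle and of cytokinesis include *Arhgap11a* (chromosome 2, 113831492 to 113848661, minus strand, mm10), which encodes a GTPase-activating protein of RhoA and so favours its inactive state. Its level was 18.2 and 18.1 RPKM in the controls and 25.3 and 29.0 RPKM in *Qk* cKO. The controls nearly coincided and both *Qk* cKO samples lay well above them, with 3683 and 3346 tags against 5312 and 5814. The log2 fold change was 0.59 with a standard error of 0.06 (n = 2 per group), the highest of the 48 members. It stayed between 0.50 and 0.68 when each sample was left out in turn. The gene was chosen by this difference, so its size, rank and steadiness are a description and no support. The log2 difference between its controls was 0.020, beside the median of 0.16 over the members. *Ect2*, the exchange factor that activates RhoA at the cell equator, had 24.3 and 20.7 RPKM in the controls and 27.4 and 28.6 RPKM in *Qk* cKO. It rose by 0.33 on the log2 scale (FDR = 0.0439, edgeR, standard error 0.07). Transcripts of an activator and of an inactivator of RhoA thus both lay higher in *Qk* cKO.

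*Anln* encodes anillin, a scaffold of the contractile ring, and had 11.8 and 10.6 RPKM in the controls and 12.5 and 13.7 RPKM in *Qk* cKO (log2 fold change 0.24, FDR = 0.2997, edgeR). *Prc1*, which crosslinks the antiparallel microtubules of the central spindle, had 21.9 and 19.5 RPKM in the controls and 23.7 and 23.6 RPKM in *Qk* cKO (log2 fold change 0.20, FDR = 0.204). *Racgap1*, for the subunit of the centralspindlin complex that binds Ect2, had 70.7 and 72.0 RPKM in the controls and 78.7 and 76.6 RPKM in *Qk* cKO (log2 fold change 0.13, FDR = 0.447). In all 3 genes the *Qk* cKO samples lay above both controls, but the difference did not pass the threshold. *Cit*, which encodes citron kinase, was the exception in this role with overlapping groups and a log2 fold change of 0.06. *Prc1* shares 911 exon bases with *Rccd1* on the opposite strand, and since the libraries were not described as stranded, reads of the shared bases cannot be told apart.

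**Figure D2:**
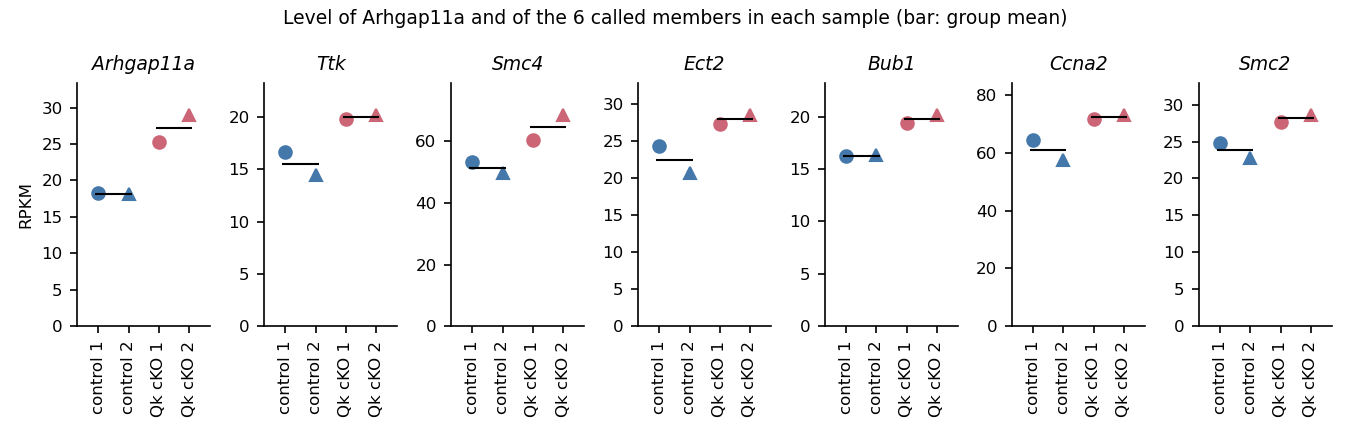
Level of *Arhgap11a* and of the 6 called members in each sample, in RPKM on axes that start at 0. Circles are samples numbered 1, triangles samples numbered 2, blue is control, red is *Qk* cKO, and the bar is the mean of each group of 2. In all 7 genes both red points lie above both blue points, by 0.17 to 0.49 on the log2 scale after TMM scaling. All 7 were chosen or called by their difference between these samples, so this separation is no further support.

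Of the 5 spindle checkpoint genes, 2 were called. *Bub1*, a kinase that recruits other checkpoint proteins to kinetochores, had 16.2 and 16.3 RPKM in the controls and 19.4 and 20.2 RPKM in *Qk* cKO. The controls differed by far less than the groups, and *Bub1* rose by 0.29 on the log2 scale (FDR = 0.0459, edgeR, standard error 0.06). *Ttk*, the kinase Mps1 at the top of the checkpoint, had 16.6 and 14.47 RPKM in the controls and 19.8 and 20.2 RPKM in *Qk* cKO. It rose by 0.38 (FDR = 0.0887, standard error 0.09), the largest change after that of *Arhgap11a*. *Bub1b*, whose product BubR1 binds and inhibits Cdc20, had 45.6 and 41.4 RPKM in the controls and 51.7 and 49.6 RPKM in *Qk* cKO. With an unadjusted p of 0.000599 and an FDR of 0.102 it missed the threshold narrowly. *Bub3*, the adaptor of both BUB kinases and the most abundant gene of this role per length, had 69.1 and 64.6 RPKM in the controls and 73.3 and 68.8 RPKM in *Qk* cKO, with overlapping groups and a log2 fold change of 0.10 (FDR = 0.672). *Mad2l1* had a log2 fold change of 0.12.

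Among the 7 genes of chromosome condensation and structure, *Smc4* and *Smc2* were called. They encode the pair of ATPases at the core of every condensin complex. *Smc4* had 53.2 and 49.6 RPKM in the controls and 60.4 and 68.7 RPKM in *Qk* cKO, an increase of 0.34 on the log2 scale (FDR = 0.0409, edgeR, standard error 0.07). *Smc2* had 24.8 and 22.8 RPKM in the controls and 27.6 and 28.6 RPKM in *Qk* cKO, an increase of 0.25 (FDR = 0.0648, standard error 0.06). The 3 non-SMC subunits of condensin I were not called. Of these *Ncapg* had 12.5 and 12.3 RPKM in the controls and 13.7 and 15.4 RPKM in *Qk* cKO (log2 fold change 0.24, FDR = 0.350), and 944 of its exon bases are shared with *Lcorl* on the opposite strand. *Ncapd2* and *Ncaph* had log2 fold changes of 0.10 and 0.09. *Top2a*, the topoisomerase that untangles sister chromatids and the most abundant member per length, had 148 and 125 RPKM in the controls and 148 and 149 RPKM in *Qk* cKO. Control 1 was level with both *Qk* cKO samples and control 2 lay below them (log2 fold change 0.13, FDR = 0.738). *Mki67*, the proliferation marker Ki-67, had a log2 fold change of 0.16 (FDR = 0.575).

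*Ccna2* was the called gene among CDK1 and the mitotic cyclins. It encodes cyclin A2, which acts in S phase and at mitotic entry, and had 64.5 and 57.4 RPKM in the controls and 71.8 and 73.2 RPKM in *Qk* cKO, an increase of 0.26 on the log2 scale (FDR = 0.0713, edgeR, standard error 0.06). *Ccna2* shares 510 exon bases with *Exosc9* on the opposite strand, which had a log2 fold change of 0.03 (FDR = 0.931). *Ccnb1*, cyclin B1, had 44.2 and 36.4 RPKM in the controls and 47.7 and 43.2 RPKM in *Qk* cKO (log2 fold change 0.19, FDR = 0.448), with overlapping groups. *Ccnb1* also has pseudogene copies, such as *Ccnb1-ps* with 99.2% identity over 1287 bases, so its reads could be split. *Cdca3*, which helps to trigger mitotic entry, had 47.1 and 45.3 RPKM in the controls and 54.4 and 49.5 RPKM in *Qk* cKO (log2 fold change 0.18, FDR = 0.531). *Cdk1* itself and *Ccnb2* had log2 fold changes of 0.08 and 0.01, and in both the groups overlapped.

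No gene of the 7 of centromere and kinetochore was called by edgeR's quasi-likelihood test, its exact test or DESeq2, with 4 of the 7 at an unadjusted p below 0.05. *Cenpe*, a kinesin that carries chromosomes to the metaphase plate, had 24.3 and 20.7 RPKM in the controls and 26.5 and 26.6 RPKM in *Qk* cKO (log2 fold change 0.25, FDR = 0.149). *Cenpf*, a large protein of the outer kinetochore, had 15.1 and 14.7 RPKM in the controls and 17.0 and 16.8 RPKM in *Qk* cKO (log2 fold change 0.20, FDR = 0.151). *Nuf2* and *Spc25*, subunits of the NDC80 complex that holds microtubules, were the others. *Nuf2* had 28.9 and 23.9 RPKM in the controls and 30.7 and 30.6 RPKM in *Qk* cKO (log2 fold change 0.23, FDR = 0.326). *Spc25* had 21.7 and 17.9 RPKM in the controls and 22.4 and 24.1 RPKM in *Qk* cKO (log2 fold change 0.24, FDR = 0.354). The other subunits *Ndc80* and *Spc24* and the centromeric histone gene *Cenpa* had log2 fold changes of 0.10, 0.02 and 0.06 with overlapping groups.

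The roles that follow gave no call with any of these 3 tests either. Of the 6 genes of the anaphase-promoting complex and sister chromatid separation, 2 were at an unadjusted p below 0.05. *Ube2c*, the ubiquitin-conjugating enzyme of that complex, had 114 and 121 RPKM in the controls and 134 and 130.3 RPKM in *Qk* cKO (log2 fold change 0.18, FDR = 0.249), and 592 of its exon bases are shared with the weakly expressed *Tnnc2*. *Cdc20*, its activator in mitosis, had 39.7 and 37.1 RPKM in the controls and 42.6 and 40.8 RPKM in *Qk* cKO (log2 fold change 0.13, FDR = 0.530). *Fzr1* encodes Cdh1, the activator that takes over at mitotic exit and in G1, and was 1 of the 2 members with a negative log2 fold change, -0.06. *Cdca5*, *Espl1* and *Pttg1*, for sororin, separase and securin, had log2 fold changes of 0.18, 0.03 and 0.02.

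Of the 5 spindle assembly genes, 3 were at an unadjusted p below 0.05. *Tpx2*, which activates Aurora A on the spindle, had 52.5 and 47.9 RPKM in the controls and 58.8 and 56.5 RPKM in *Qk* cKO (log2 fold change 0.21, FDR = 0.241, edgeR). *Nusap1*, a microtubule-stabilising protein, had 51.8 and 41.8 RPKM in the controls and 52.2 and 50.8 RPKM in *Qk* cKO (log2 fold change 0.15, FDR = 0.570), and here control 1 lay between the *Qk* cKO samples. *Ckap2l*, a spindle protein of neural progenitors also called radmis, had 20.36 and 20.38 RPKM in the controls and 21.6 and 23.0 RPKM in *Qk* cKO (log2 fold change 0.15, FDR = 0.468). *Hmmr* had a log2 fold change of 0.12, and *Ckap2* was the other member with a negative value, -0.07.

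The 5 genes of the Aurora kinases and the chromosomal passenger complex, which corrects faulty attachments and then guides cytokinesis, had a median log2 fold change of 0.12. *Cdca8*, for borealin, had 19.7 and 17.6 RPKM in the controls and 21.12 and 20.04 RPKM in *Qk* cKO (log2 fold change 0.16, FDR = 0.492, edgeR) and was the only gene of the 5 at an unadjusted p below 0.05. *Incenp*, the scaffold of the complex, had 44.39 and 42.01 RPKM in the controls and 43.78 and 43.77 RPKM in *Qk* cKO, a log2 fold change of 0.03 (FDR = 0.903). *Aurka*, *Aurkb* and *Birc5*, for survivin, had log2 fold changes of 0.12, 0.17 and 0.05. Of the kinases *Melk* and *Pbk*, *Pbk* had 46.9 and 40.5 RPKM in the controls and 48.1 and 45.1 RPKM in *Qk* cKO (log2 fold change 0.11, FDR = 0.780), and *Melk* had a log2 fold change of 0.14, with 0 of the 2 at an unadjusted p below 0.05. A copy of *Pbk*, *Gm12387*, matches 955 bases of its transcript at 95.4% identity.

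**Figure D3:**
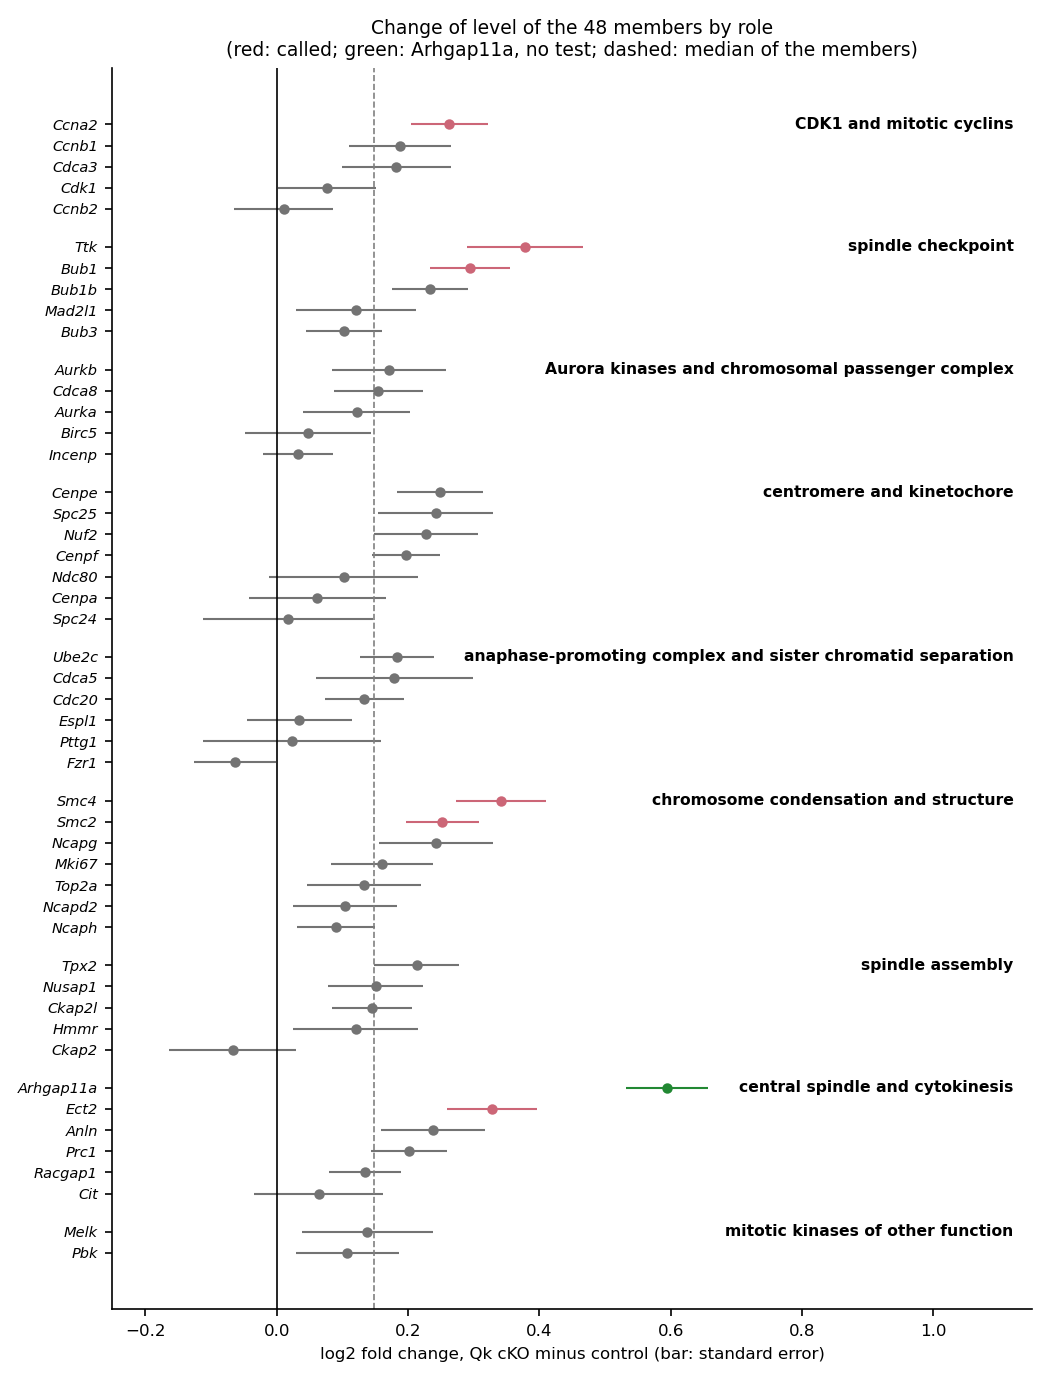
Log2 fold change of each member, *Qk* cKO minus control (horizontal axis), by role, with its standard error as a bar (n = 2 per group). Red genes were called, green is *Arhgap11a*, for which no test is given, and the dashed line is the median of 0.15. All members lie above 0 except *Fzr1* and *Ckap2*.

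The promoters of the members were examined for sequence elements known from genes of G2 and M phase. In the RefSeq promoter windows of 300 bases on GRCm38 (mm10), 250 before and 50 after each start site, 41 of the 48 members had an entry. The cell cycle homology region, searched as TTTGAA or TTCGAA on both strands, is the element to which MuvB binds, and CCAAT, also searched on both strands, is the box bound by NF-Y. A match of one can share its end base with a match of the other. The first occurred in 30 of the 41 members (73.2%) beside 21.7% of all 27025 genes with a window. In the stretch from 50 bases before the start site to the end of the window, which was chosen after the windows were seen, it occurred in 26 members (63.4%) beside 6.12% of all genes. CCAAT occurred in 30 members (73.2%) beside 41.1% of all genes. A match is a description of these windows and does not show binding. The promoters of *Arhgap11a* and of the called checkpoint genes *Bub1* and *Ttk* are shown from 250 bases before the start site to 30 after it, in the direction of transcription, with both motifs in capitals. They lie at chr2:113848632-113848911 (minus strand), chr2:127831830-127832109 (minus strand) and chr9:83834439-83834718 (plus strand).
Arhgap11a: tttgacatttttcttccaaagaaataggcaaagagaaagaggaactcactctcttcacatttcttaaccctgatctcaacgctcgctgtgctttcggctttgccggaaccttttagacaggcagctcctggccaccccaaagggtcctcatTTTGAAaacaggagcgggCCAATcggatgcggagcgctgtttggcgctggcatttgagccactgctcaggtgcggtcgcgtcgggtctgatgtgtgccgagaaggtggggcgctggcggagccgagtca
Bub1: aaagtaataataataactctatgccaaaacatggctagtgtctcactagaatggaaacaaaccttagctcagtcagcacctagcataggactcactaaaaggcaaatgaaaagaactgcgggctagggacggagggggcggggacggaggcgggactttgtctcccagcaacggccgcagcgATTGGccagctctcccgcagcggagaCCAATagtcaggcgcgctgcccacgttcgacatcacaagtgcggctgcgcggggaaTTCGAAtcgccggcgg
Ttk: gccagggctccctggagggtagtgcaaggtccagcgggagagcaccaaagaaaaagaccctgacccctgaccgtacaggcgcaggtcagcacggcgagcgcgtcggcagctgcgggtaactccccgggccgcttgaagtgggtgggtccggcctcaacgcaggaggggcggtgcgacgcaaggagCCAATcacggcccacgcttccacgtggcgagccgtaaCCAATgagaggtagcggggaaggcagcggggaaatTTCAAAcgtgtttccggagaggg
In *Bub1* and *Ttk* the first motif starts 14 and 7 bases after the start site, with 2 CCAAT boxes before it. In *Arhgap11a* it starts 99 bases before the start site, outside that stretch, and the single CCAAT box follows it.

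To see whether the shift extended to other genes of the cell cycle, lists chosen for these phases were examined in the same fit. Of 50 other mitosis genes found, 47 had a log2 fold change above 0 with a median of 0.17, and 3 were called higher and none lower. DESeq2 also called 3 genes of this list, while none was called by edgeR's exact test, with filterByExpr, with the RPKM filter or without control 1, with 13, 18, 17 and 22 at an unadjusted p below 0.05, and leaving out *Qk* cKO 2 left 1. The 3 were *Aspm*, a spindle pole protein of neural progenitors, *Casc5* (*Knl1*), the kinetochore scaffold that BUB proteins bind, and *Kntc1*, a part of the complex that brings dynein to kinetochores. *Casc5* had 6.66 and 6.25 RPKM in the controls and 8.01 and 8.89 RPKM in *Qk* cKO (log2 fold change 0.40, FDR = 0.0671, edgeR). *Aspm* had 8.46 and 8.12 RPKM in the controls and 9.68 and 10.02 RPKM in *Qk* cKO (log2 fold change 0.26, FDR = 0.0662), and *Kntc1* had 14.2 and 12.3 RPKM in the controls and 16.13 and 16.10 RPKM in *Qk* cKO (log2 fold change 0.29, FDR = 0.0675). Without control 2 the median of this list was 0.08 and none of it was called, with 5 at an unadjusted p below 0.05.

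Of 32 genes of DNA replication and S phase, none was called by edgeR's quasi-likelihood test, its exact test or DESeq2, which gave an adjusted p for 30, 10 were at an unadjusted p below 0.05 and 28 had a log2 fold change above 0, with a median of 0.12. Of 20 regulators of cell cycle transcription none was called by these 3 tests, 3 were at an unadjusted p below 0.05 and the median was 0.09. The list of 12 G1 cyclins, their kinases and CDK inhibitors was divided, with 8 genes below 0 and a median of -0.03, and 2 of its genes were called. Neither was called by the exact test, with filterByExpr, with the RPKM filter, or without control 1, control 2 or *Qk* cKO 2, with 2 to 4 genes of the list at an unadjusted p below 0.05, and the median was 0.05 without control 1 and 0.02 without *Qk* cKO 2. DESeq2 called *Ccnd2* and gave no adjusted p for *Cdk6*. The study's own EdgeR list of changed transcripts holds *Ccnd2* but not *Cdk6*. *Ccnd2*, the cyclin D of cortical progenitors, had 92.3 and 93.5 RPKM in the controls and 114 and 125 RPKM in *Qk* cKO (log2 fold change 0.37, FDR = 0.0459). *Cdk6*, a partner of D cyclins, had 4.35 and 4.72 RPKM in the controls and 6.08 and 6.45 RPKM in *Qk* cKO (log2 fold change 0.48, FDR = 0.0959).

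**Figure D4:**
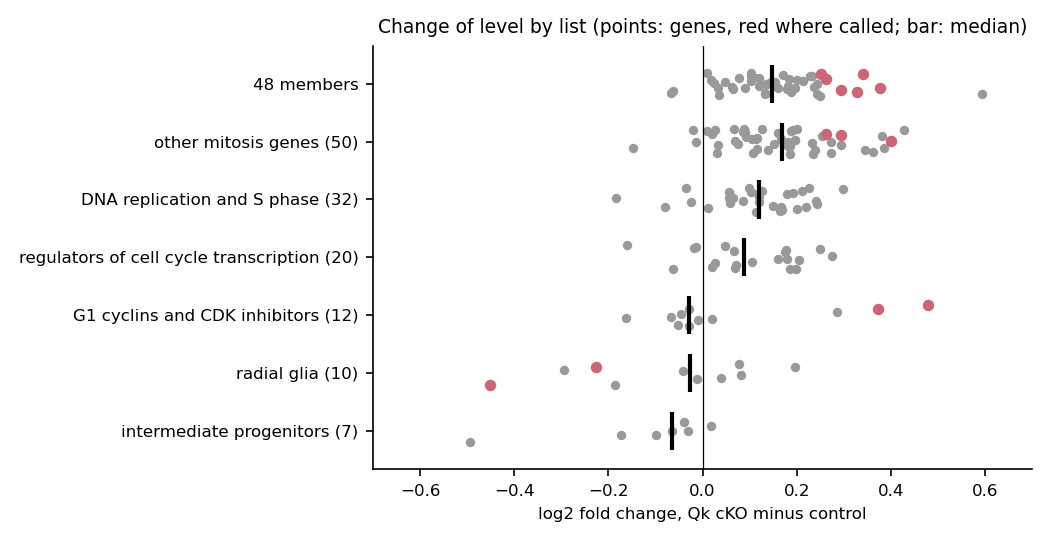
Log2 fold change, *Qk* cKO minus control (horizontal axis), of the 48 members and of genes on 6 other lists. Points are genes, red where called, the black bar is the median of the list, and the number of genes tested follows each name. The mitosis lists lie mostly to the right of 0, *Arhgap11a* is the rightmost grey point of the members, and 1 gene of the G1 list lies outside the axis.

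Markers of the progenitors themselves were examined in the same way. Of 10 radial glia markers, 6 had a log2 fold change below 0 and 2 were called lower. The exact test and DESeq2 each called *Fabp7* alone, and none was called with filterByExpr, with the RPKM filter or without either control, with 4 of the 10 at an unadjusted p below 0.05 in each of these. Without control 1, 6 of the 10 were above 0, with a median of 0.05. *Fabp7*, a fatty acid binding protein of radial glia, had 989 and 901 RPKM in the controls and 703 and 667 RPKM in *Qk* cKO (log2 fold change -0.45, FDR = 0.0153, edgeR), and *Slc1a3*, a glutamate transporter, had 18.5 and 18.4 RPKM in the controls and 15.8 and 15.5 RPKM in *Qk* cKO (log2 fold change -0.23, FDR = 0.0887). Of 7 intermediate progenitor markers none was called by edgeR's quasi-likelihood test, its exact test or DESeq2, which gave an adjusted p for 6. At an unadjusted p below 0.05 stood 1 of the 7. The log2 fold change was below 0 in 6 of the 7, with a median of -0.066. Both *Qk* cKO samples lay below both controls in 3 of them, beside 19.5% of genes with a mean RPKM of at least 1, and above both in 0. Their summed level was 147 and 141 RPKM in the controls and 136 and 138 RPKM in *Qk* cKO. Of 9 neuronal markers found, none was called by these tests and 1 was at an unadjusted p below 0.05, with a median log2 fold change of -0.0093. The part of the shares of cell types in the levels of the mitosis genes was not tested.

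The neighbours of *Arhgap11a* on chromosome 2 were examined in the same fit. Of 20 annotated genes within 500 kb, 9 had tags and were tested, but only 4 of these had a mean of at least 1 RPKM. None of the 9 was called or had an unadjusted p below 0.05 in edgeR's quasi-likelihood test, the smallest p being 0.193. Over all genes tested 0.207% were called higher and 0.377% lower, so few calls would be found among 9 genes. The nearest, *Scg5*, lies 2371 bases from *Arhgap11a* and had 67.5 and 68.1 RPKM in the controls and 64.8 and 64.6 RPKM in *Qk* cKO (log2 fold change -0.05, FDR = 0.880). On the other side the nearest gene in the files was *Gjd2*, 160940 bases away, with a log2 fold change of -0.03.

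Splicing of the members was compared at the level of exon junctions. The authors' files held 153 alternative splicing events in 40 of the 48 genes, and 64 events in 27 genes had the coverage of at least 20 tags that was needed for a test. Coverage is the smallest sum of junction tags over a group or an isoform. By Fisher's exact test (two-sided) on isoform tags summed over the replicates, 3 events in 2 genes were called, in *Incenp* and *Prc1*, at p below 0.01 and an FDR below 0.1 within the event type. Over all 11500 events tested 7.5% were called. All 3 were cassette exons whose inclusion fell in *Qk* cKO. The test takes tags as independent and leaves out variation between embryos. With edgeR's interaction of isoform and genotype, which includes it, 1 member event was called, that of *Incenp*, beside 0.557% of all events tested. Of the 64 events, 52 differed in inclusion by less than 0.05, and the largest difference without a call was 0.124. The median absolute difference was 0.0216 over the members and 0.0256 over all events tested.

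The called exon of *Incenp* is a microexon of 12 nt, exon 10 of 18 in transcript *Incenp-205*, at chr19:9883192-9883203 on the minus strand (mm10). It lies in the coding sequence, adds 4 codons and is flanked by introns of 495 and 4763 bases. The exon is shown in capitals between the last 30 bases of exon 9 and the first 30 of exon 11, as read from the annotated transcript.
Incenp: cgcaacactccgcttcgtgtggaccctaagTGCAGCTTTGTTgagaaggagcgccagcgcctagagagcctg
Inclusion of this exon was 0.153 and 0.189 in the controls and 0.034 and 0.014 in *Qk* cKO. The 95% Wilson intervals, which cover counting error only, reached from 0.106 to 0.222 and from 0.132 to 0.259 in the controls and from 0.017 to 0.076 and from 0.0038 to 0.050 in *Qk* cKO, so those of the groups did not overlap. The junction into the exon held 22.6 and 28.2 tags in the controls and 6.13 and 2.07 tags in *Qk* cKO, and the skipping junction 125 and 117 tags against 161 and 141. From the summed tags, inclusion fell from 0.170 to 0.0249 (p = 6.27e-11, FDR = 7.03e-09, Fisher's exact test), with an FDR of 0.0333 by edgeR's interaction test. The short form was thus the main form in both groups, and the change touched a minor form of a gene whose total level differed by only 0.03 on the log2 scale.

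The called exon of *Prc1* is exon 14 of 15 in transcript *Prc1-210*, at chr7:80313527-80313568 on the plus strand (mm10). It is 42 nt long from its outer 3′ splice site and 39 nt from an inner one 3 nt further on. The 2 called events differ only in this site and share the skipping junction and the junction out of the exon. That last junction held 21.3 and 26.2 tags in the controls and 6.13 and 17.8 tags in *Qk* cKO. The junction into the outer site held 20.8 and 22.1 tags in the controls and 4.05 and 20.4 tags in *Qk* cKO. Into the inner site it held only 3.44 and 2.06 tags against 0.034 and 0.29. Inclusion with the inner site thus rests mostly on shared tags, and the 2 events are not separate observations. The exon is coding, adds 14 or 13 codons and is flanked by introns of 318 and 1545 bases. It is shown with the last 30 bases of exon 13 and the first 30 of exon 15, and the capitals mark the 39 bases common to both forms.
Prc1: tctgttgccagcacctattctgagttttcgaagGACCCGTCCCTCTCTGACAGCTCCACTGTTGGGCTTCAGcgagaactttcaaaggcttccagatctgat
With the outer site, inclusion was 0.232 and 0.359 in the controls and 0.039 and 0.161 in *Qk* cKO, and with the inner site it was 0.150 and 0.247 in the controls and 0.024 and 0.083 in *Qk* cKO. Both *Qk* cKO samples lay below both controls, but the samples within each group were well apart. The Wilson intervals of the outer form were 0.156 to 0.327 and 0.254 to 0.478 in the controls and 0.016 to 0.086 and 0.105 to 0.236 in *Qk* cKO, so those of control 1 and *Qk* cKO 2 overlapped. From the summed tags inclusion fell from 0.286 to 0.0969 (p = 2.06e-06, FDR = 0.000121, Fisher's exact test) for the outer form and from 0.190 to 0.0510 (p = 1.92e-06, FDR = 0.000116) for the inner one. By edgeR's interaction test the FDR was 0.354 for both, so the change in *Prc1* did not pass the test that includes variation between embryos. The study, which used Fisher's exact test, lists the gene *Prc1* among its Qki-regulated splicing targets.

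**Figure D5:**
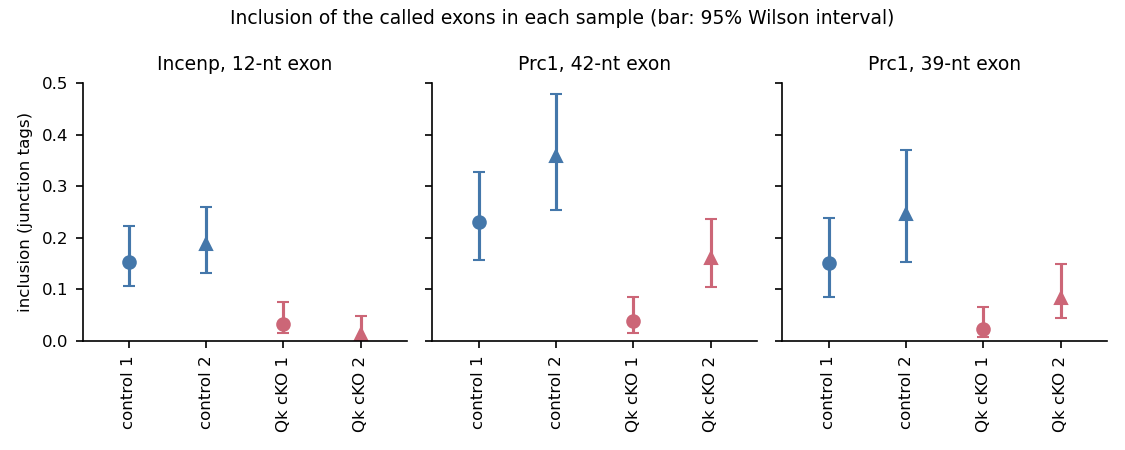
Inclusion of the called exons in each sample, calculated from junction tags (vertical axis), with 95% Wilson intervals as bars. Circles are samples numbered 1, triangles samples numbered 2, blue is control and red is *Qk* cKO. For *Incenp* the red points lie at 0.034 and 0.014 and the blue ones at 0.153 and 0.189, while for *Prc1* the spread within each group is wider.

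*Arhgap11a* itself had 1 event with enough coverage, a cassette exon of 139 nt, whose inclusion was 0.852 and 0.873 in the controls and 0.917 and 0.887 in *Qk* cKO. This is given as a description. Both *Qk* cKO samples lay slightly above both controls, with Wilson intervals of 0.765 to 0.909 and 0.794 to 0.924 in the controls and 0.860 to 0.952 and 0.832 to 0.926 in *Qk* cKO, which all overlap. Of the 6 members called by level, *Smc4*, *Ect2* and *Ttk* had events with enough coverage, and none of these was called by Fisher's exact test or by edgeR's interaction test.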

How the data were processed

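The members and all gene lists were chosen with earlier results of these data known. The authors aligned reads to mm10 with OLego and deposited Quantas estimated counts (tags) and RPKM per gene, and tags per isoform and junction of each splicing event. Tags per gene were rounded and tested with edgeR 4.0.16 (R 4.3.3) after TMM scaling, with the Benjamini-Hochberg adjustment over all genes tested. The standard error was taken from the F statistic. DESeq2 1.42.0 (an adjusted p for 8975 of 18834 genes), other scalings and filters, and single samples left out served as alternatives. Inclusion is the mean of the deposited junction tags that support an exon, divided by that mean plus the skipping tags. Fisher's exact test and Wilson intervals came from scipy 1.17.1, and copies of members from blastn 2.17.0 (identity of at least 95% over at least 300 bases). The tests other than those with the replicate block were checked on simulated data. The simulation of levels gave all genes the same dispersion. That for Fisher's exact test held no variation between embryos, so it could not show the effect of leaving this variation out. Values in every sample are given for *Arhgap11a*, for members called or at an unadjusted p below 0.05, for the 3 members with the largest change and for the most abundant member of each role. Of other lists called genes are named, at most 4 a list.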

Additional observations from a re-analysis of the deposited data

How the results depend on the processing

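The calls of member levels depended on the setting, and the sign of their median did not. The count of members called of 47 was 6 with all genes that had a tag, 6 with DESeq2 or upper-quartile scaling, 2 with the exact test and 0 with filterByExpr or the RPKM filter. Leaving out 1 sample gave between 0 and 5 called members, with 0 without either control, and a median log2 fold change between 0.085 and 0.25. The other settings gave a median between 0.14 and 0.15. Without the 16 members that share exon bases or have near-identical copies, an alternative added after the data were seen, 5 were called and the median was 0.17. Of the named members, *Incenp* changed direction, to a log2 fold change of -0.012 without control 2, and ranged up to 0.075 with another sample left out. Member events called numbered 3 of 64 tested, beside 7.5% of all events tested. With junction tags only they numbered 5 of 64, beside 7.78%, and with edgeR's interaction test 1 of 64, beside 0.557%. The causes were not tested. The same replicate numbers occur in both groups, but deviations of same-numbered samples correlated at 0.30 over 12928 genes and -0.089 over the 11298 on autosomes, so the numbers were not taken as pairs. With the replicate block 9 members were called, with *Bub1b*, *Tpx2* and *Cenpe* added, and the median was 0.15. Over all genes tested the block called 0.388% higher, against 0.207% without it. In splicing the block called 3 member events, beside 7.85% of all events tested. With 2 samples a group, differences below the spread between embryos could not be detected.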

Other observations

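Markers of cells that a cortical dissection could also hold were compared in the same fit. Of 6 interneuron markers none was called by edgeR's quasi-likelihood test, its exact test or DESeq2, and 2 were at an unadjusted p below 0.05. Their summed level was 145 and 153 RPKM in the controls and 154 and 156 RPKM in *Qk* cKO. Of 8 microglial markers *Ctss*, a lysosomal protease, was called lower, with 8.87 and 7.996 RPKM in the controls and 5.41 and 5.43 RPKM in *Qk* cKO (log2 fold change -0.62, FDR = 0.0547, edgeR), while 4 of the 8 had a log2 fold change above 0. The exact test also called it, DESeq2 gave it no adjusted p, and it was not called with filterByExpr, with the RPKM filter, or without control 1, control 2 or *Qk* cKO 2. Of 7 endothelial, 8 pericyte and meningeal and 6 erythroid markers found none was called by the 3 tests (DESeq2 gave an adjusted p for 6, 7 and 4), with 1, 3 and 2 at an unadjusted p below 0.05. The erythroid markers summed to 595 and 590 RPKM in the controls and 818 and 601 RPKM in *Qk* cKO, so *Qk* cKO 1 stood apart. Without *Qk* cKO 2, 3 of the 6 were called higher. The pericyte and meningeal markers summed to 152 and 144 RPKM in the controls, 142 RPKM in *Qk* cKO 1 and 186 RPKM in *Qk* cKO 2, so *Qk* cKO 2 stood apart. Without *Qk* cKO 1, 4 of these 8 and 1 of the 7 endothelial markers were called higher, and without *Qk* cKO 2, 1 of the 8 was called lower.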
